A study of Mus musculus with 9 samples.

Results

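RNA of mouse CD8 T cells stimulated for 6 h with 20 mM L-2HG was compared with RNA of cells stimulated for 6 h without a compound, in 3 libraries each, 6 of the 9 libraries of the study. Naive CD8 T cells had been isolated from spleens of wild-type mice, and for every library they were activated with plate-bound antibodies, each at 4 µg/mL, against CD3, which signals for the T cell receptor, and CD28, which gives the second signal. L-2HG was added at the start of the stimulation, and the control is labelled as untreated, with no vehicle or osmolyte named. The remaining 3 libraries, which received 20 mM D-2HG in the same way, entered the model as a further group and are used below to compare the mirror-image forms. Of 55011 genes in the count table, 10235 passed the count filter and were tested. Whether a replicate stands for a mouse, a culture or a well is not labelled. The p-values therefore measure only how far these samples spread, which may be technical.

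L-2HG is the L form of 2-hydroxyglutarate, the product of reducing the keto group of 2-oxoglutarate to a hydroxyl group. Malate and lactate dehydrogenases make it as a side reaction, more so when oxygen is low or the cell is acidic. Both mirror-image forms resemble 2-oxoglutarate and can compete with it in dioxygenases, the enzymes that demethylate histones, DNA and RNA and that hydroxylate the HIF transcription factors. CD8 T cells respond to their antigen receptor within hours by switching on cytokine genes, growth and glycolysis, and their interferon genes answer the interferon-γ that the cells make themselves.

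The libraries differed in depth and composition, both within the groups and between them. Gene counts totalled 1990896 to 5731885 in control and 562627 to 2562692 with L-2HG, where L-2HG replicate 2 was the lowest and a single count there equals 1.97 counts per 1000000 (CPM). The satellite repeat genes Gm10800 and Gm10801 took 0.910% to 5.35% of counts in control and 6.71% to 24.4% with L-2HG, highest in control replicate 2 and L-2HG replicate 2. Transcripts encoded by mitochondria took 2.66 ± 0.416% in control (SD, n = 3) and 1.49 ± 0.322% in the L-2HG libraries. The exact two-sided permutation p was 0.1, which is the smallest that 3 against 3 libraries allow. Olfactory and other sensory receptor genes, silent in T cells, held 214 to 855 CPM in control and 1315 to 3379 CPM with L-2HG. On the first principal component, which held 47.6% of the variance, control replicates 1 and 3 lay at -59.6 and -51.4, control replicate 2 at -11.9, and the L-2HG replicates at 13.1, 63.7 and -1.10. The results below are therefore given with and without these libraries, and the part of depth, satellite share and sensory receptor counts in them was not tested except where a value is stated. The satellite, mitochondrial and sensory receptor shares and the first principal component each separated every L-2HG library from every control. Their part therefore cannot be told apart from that of L-2HG.

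With L-2HG, 1812 genes (17.7% of those tested) differed from control at an adjusted p under 0.05 in edgeR's quasi-likelihood test, 963 higher (9.41%) and 849 lower (8.3%). The CPM ranges of the 2 groups did not overlap for 1683 higher (16.4%) and 1512 lower genes (14.8%). The split between higher and lower calls differed between scalings, tools and count filters. With TMM 53.1% of the calls were higher, with library totals 77.7% of 1279 and with DESeq2's size factors in edgeR 47.2% of 1893. DESeq2's own test, fitted to every gene with a count, gave 33.6% of 2095, and edgeR without the count filter gave 31% of 1962. The median log2 fold change over all tested genes was 0.05. The number of calls was set largely by single libraries. It was 744 without L-2HG replicate 2, 684 of them among the 1812. It was 177 without control replicate 1, 65 without control replicate 3 and 4108 without control replicate 2. It was 394 and 2163 without L-2HG replicate 1 or 3. Of the 1812 calls, 1747 were lost without control replicate 3, 1641 without control replicate 1, 1470 without L-2HG replicate 1, 1128 without L-2HG replicate 2, 335 without L-2HG replicate 3, 650, 502 and 254 without D-2HG replicate 1, 2 or 3, and 17 without control replicate 2. A core of 60 genes, 25 higher and 35 lower, passed whichever library was left out. Calls named below belong to this core where so stated. The percentage of each list called, given below, is to be read beside the 17.7% of all tested genes. With the log2 satellite share of each library as a covariate, 8 genes passed: Gbp2, Ly6a, Rgs1, Rgs16 and Serpinb9 were lower and Il7r, Thy1 and Mctp2 higher, and all 8 belong to the core of 60. The share was higher in every L-2HG library than in every control. The covariate therefore also takes up part of the difference between the groups. A call against control lost with it, here and below, cannot be assigned to the share rather than to L-2HG.

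**Figure D1:**
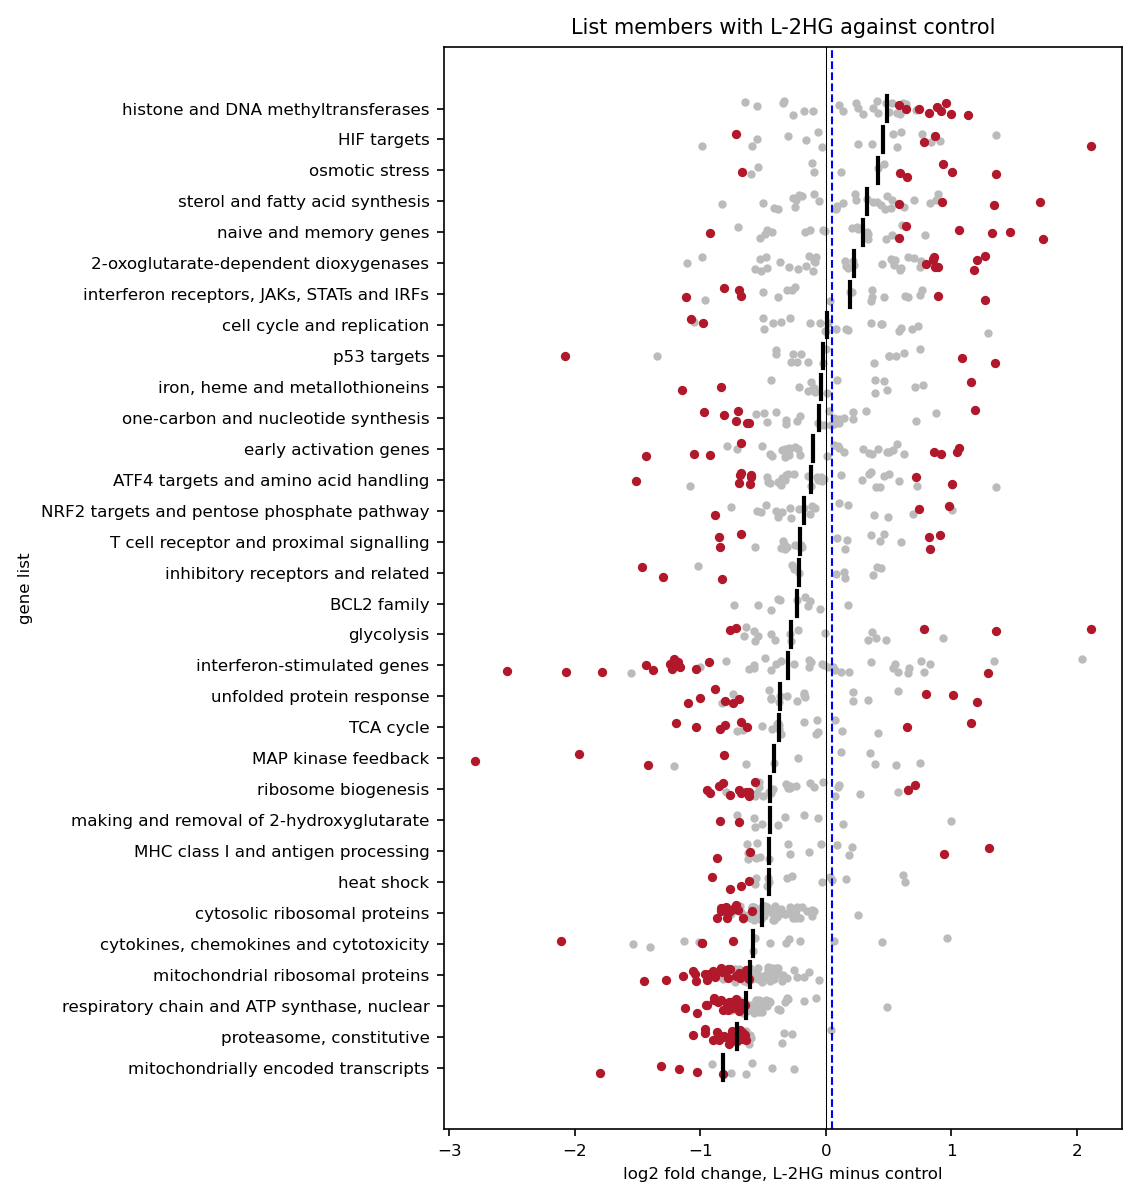
Log2 fold change of L-2HG minus control for the tested members of each gene list (1 point a gene, red where edgeR's adjusted p was under 0.05, grey otherwise). Black bars mark the median of a list, and the dashed blue line marks the median of all tested genes, 0.05. The lists of mitochondrial, proteasome and ribosomal protein genes lie left of the line with few members on the right, while the methyltransferase list has red points only on the right.

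Genes that interferons switch on were lower with L-2HG in part. Of 46 tested members of the interferon-stimulated list, 13 fell and 1, the ubiquitin ligase gene Rnf213, rose (30.4% called, against 17.7% of all tested genes), and the median log2 fold change was -0.30. Gbp2, a guanylate-binding protein that attacks membranes around pathogens (ENSMUSG00000028270, chr3:142620602-142638008, GRCm38), was at 281, 245 and 321 CPM in the controls and at 64.3, 84.9 and 98.9 CPM with L-2HG. Every L-2HG library lay below every control. The fall was 3.43-fold, or -1.78 ± 0.21 as a log2 fold change with its standard error (edgeR adjusted p = 0.000159). A second such gene, Ly6a, encodes the surface protein Sca-1 (ENSMUSG00000075602, chr15:74994877-74998031) and was at 131, 75.6 and 111 CPM in control and 17.9, 9.87 and 22.4 CPM with L-2HG, which gave -2.54 ± 0.30 on the log2 scale (edgeR adjusted p = 0.000159). Its groups did not overlap either. Values are relative to the RNA of a library, so that fewer cells of a type and less RNA of a gene per cell cannot be told apart in these bulk samples.

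The genes for Samhd1, which breaks down deoxynucleotides, Slfn2, a Schlafen protein of quiescent T cells, and the surface protein Ly6c2 followed. Samhd1 was at 211, 156 and 184 CPM in control and 76.04, 86.9 and 75.2 CPM with L-2HG (log2 fold change -1.23, edgeR adjusted p = 0.00279), and Slfn2 went from 597 ± 139 to 256 ± 43.8 CPM (mean ± SD, n = 3; -1.21, edgeR adjusted p = 0.00386). For both genes each L-2HG library was below each control. Ly6c2 went from 49.02 ± 5.79 to 18.4 ± 3.65 CPM (-1.43, edgeR adjusted p = 0.00456). For the chemokine Cxcl10 the controls were at 11.8, 10.7 and 9.41 CPM and the L-2HG libraries, with 1 to 10 counts, at 0.731, 1.97 and 4.76 CPM (-2.07, edgeR adjusted p = 0.0231). This call was lost without control replicate 1 or 3 or L-2HG replicate 1, with adjusted p up to 0.121 in edgeR. Among the guanylate-binding proteins, Gbp2, Gbp7 and Gbp8 fell of 8 tested. Among the immunity-related GTPases, which load onto membranes of vacuoles that hold microbes, Igtp and Iigp1 fell of 6. Members that missed the threshold included Irgm2, at 28.9, 38.8 and 32.9 CPM in control and 37.3, 23.7 and 38.1 with L-2HG (log2 difference 0.06, 95% interval -0.46 to 0.57), and Tgtp2, with a difference of -0.03 (-0.55 to 0.48). Fallen members of the whole list numbered 6 without control replicate 3 and 9 to 18 without any other library. Gbp2, Gbp8, Ly6a, Ly6c2, Samhd1 and Slfn2 belong to the core. With the satellite share as a covariate, Gbp2 and Ly6a passed, at -1.71 and -1.80 (edgeR adjusted p = 0.00308 and 0.0189), and the other 44 members did not. Genes of these families are near-identical copies in part (Tgtp1 and Tgtp2, the Gbp cluster, the Ly6 genes), and the settings for reads that match more than 1 copy are not given in the sources used here, so single members are uncertain to that extent.

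Of the 46 tested interferon-stimulated genes 13 fell with L-2HG and 31 with D-2HG, where 8.3% and 10.5% of all tested genes fell. Promoters of genes from this list are shown because the same motifs stand before genes on both sides of that divide. Each covers 250 bases before to 50 after the gene's start (RefSeq, GRCm38.p6), in the direction of the gene. Capitals mark matches to GAAA, any 2 bases and GAAA, the core of the interferon-stimulated response element (ISRE) bound by interferon regulatory factors, or to TTCNNNGAA, the core of the GAS element of interferon-γ target genes, both searched on either strand with overlaps allowed.
Gbp2, chr3:142620413-142620712, + strand: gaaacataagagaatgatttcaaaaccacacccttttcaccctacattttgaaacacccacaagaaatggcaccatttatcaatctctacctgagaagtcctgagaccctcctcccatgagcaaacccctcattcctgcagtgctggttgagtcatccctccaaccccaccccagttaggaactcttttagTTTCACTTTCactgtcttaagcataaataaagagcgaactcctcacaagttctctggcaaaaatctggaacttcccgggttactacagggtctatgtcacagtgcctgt
Samhd1, chr2:157135047-157135346, - strand: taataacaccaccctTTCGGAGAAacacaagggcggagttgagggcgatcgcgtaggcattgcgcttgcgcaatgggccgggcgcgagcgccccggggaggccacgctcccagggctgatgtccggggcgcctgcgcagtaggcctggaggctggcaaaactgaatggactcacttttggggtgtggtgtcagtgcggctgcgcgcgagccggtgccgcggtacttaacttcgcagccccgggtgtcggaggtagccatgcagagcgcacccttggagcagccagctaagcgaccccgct
Igtp, chr11:58199306-58199605, + strand: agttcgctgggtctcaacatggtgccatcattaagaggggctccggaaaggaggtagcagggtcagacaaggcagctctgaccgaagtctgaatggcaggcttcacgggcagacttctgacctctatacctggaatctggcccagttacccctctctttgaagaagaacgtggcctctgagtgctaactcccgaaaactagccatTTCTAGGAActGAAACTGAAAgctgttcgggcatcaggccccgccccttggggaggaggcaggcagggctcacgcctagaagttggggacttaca
Irgm2, chr11:58214727-58215026, + strand: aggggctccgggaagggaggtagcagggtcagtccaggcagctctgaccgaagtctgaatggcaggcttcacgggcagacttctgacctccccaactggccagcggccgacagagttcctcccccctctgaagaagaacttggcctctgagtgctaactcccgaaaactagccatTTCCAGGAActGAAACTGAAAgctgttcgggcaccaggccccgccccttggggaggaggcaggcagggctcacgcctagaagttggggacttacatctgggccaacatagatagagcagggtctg
The capitals are an ISRE-type match in Gbp2, a GAS-type match in Samhd1, and a GAS-type followed by an ISRE-type match in both Igtp, which fell with L-2HG, and Irgm2, whose values overlapped with control. The ISRE-type core was found in 21 of 34 promoters of tested interferon-stimulated genes in the RefSeq table (61.8%) and in 3.44% of all 32851 promoters. The GAS-type core was found in 12 of the 34 (35.3%) and in 8.3% of all promoters. Among the fallen members with a promoter in the table, 5 of 8 held the ISRE-type core (62.5%) and 4 the GAS-type core (50%). These matches are descriptions of the letters and not measured sites.

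**Figure D2:**
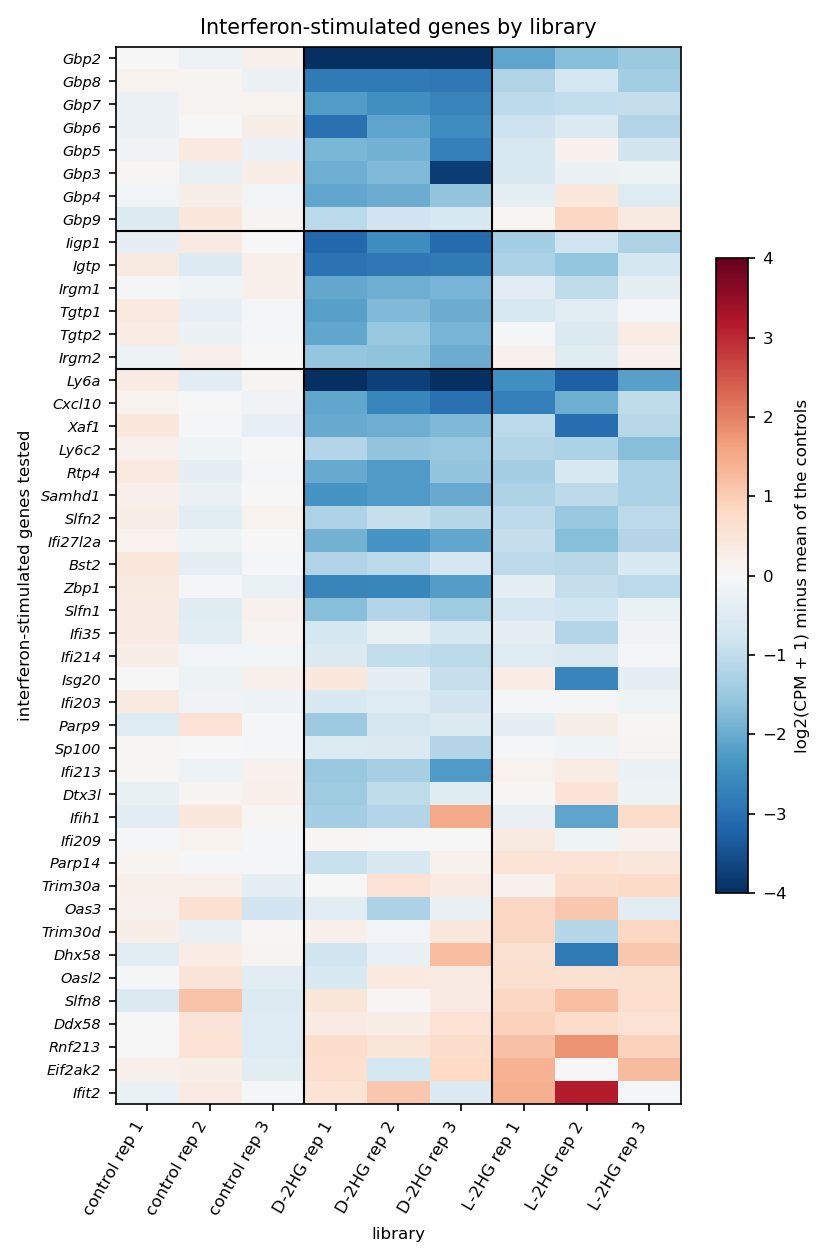
Level of the 46 tested interferon-stimulated genes in each of the 9 libraries, as log2(CPM + 1) minus the mean of the 3 controls (blue lower, red higher, colours end at -4 and 4). Black horizontal lines separate guanylate-binding proteins, immunity-related GTPases and the other members, ordered within each by the fold change with L-2HG. With D-2HG 31 of the 46 genes were called lower than control, and with L-2HG 13, so the D-2HG columns are bluer. Of all tested genes, 10.5% were called lower with D-2HG and 8.3% with L-2HG.

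The signalling genes upstream moved in both directions. Of 23 tested genes for interferon receptors, Janus kinases, STATs, interferon regulatory factors and their inhibitors, 2 rose and 4 fell (26.1%, median 0.20). Jak1, the kinase of type I and II interferon receptors and of many cytokine receptors, was at 150.4, 288 and 139.9 CPM in control and 501, 600.2 and 295 CPM with L-2HG (1.27 ± 0.28, edgeR adjusted p = 0.012). Control replicate 2 was close to the lowest L-2HG library. Irf8, Irf9, Irf1 and the phosphatase gene Ptpn2, which dampens JAK signalling, fell by 1.11, 0.81, 0.68 and 0.69 on the log2 scale (edgeR adjusted p = 0.0191, 0.0435, 0.0435 and 0.0276). None of the 4 receptor subunits passed, with log2 differences of 0.65 for Ifnar1, 0.20 for Ifnar2, 0.37 for Ifngr1 and 0.77 for Ifngr2, where Ifnar1 and Ifngr2 had an unadjusted p under 0.05. In this list the fallen members numbered 0 without control replicate 3 or L-2HG replicate 1, 1 without control replicate 1 or L-2HG replicate 2, 2 without D-2HG replicate 1 and 3 to 6 without any other library. The risen members numbered 0 without control replicate 1 or 3, 1 without L-2HG replicate 1 or 2 or D-2HG replicate 1, 2 or 3, 6 without control replicate 2 and 2 without any other library.

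MHC class I and antigen processing genes gave 2 higher and 2 lower members of 19 (21.1%, against 17.7% of all tested genes, median -0.45). Nlrc5, the transactivator of class I genes, was at 110.1, 135 and 93.7 CPM in control and 199.6, 274 and 185 CPM with L-2HG (0.95, edgeR adjusted p = 0.0112), without overlap. H2-Q4 rose by 1.30 (edgeR adjusted p = 0.0232), from 9.74 ± 0.555 to 23.9 ± 1.97 CPM. H2-Q4 belongs to a family of near-identical genes. Psme1, a subunit of the proteasome activator, fell by 0.86 and Tapbp, the peptide loading protein tapasin, by 0.60 (edgeR adjusted p = 0.0164 and 0.0476). Risen members numbered 0 without control replicate 3, 1 without control replicate 1 or L-2HG replicate 1 and 2 without any other library. The fallen members numbered 0 without control replicate 1 or 3 or L-2HG replicate 1, 1 without L-2HG replicate 2 or D-2HG replicate 1, 2 or 3, 7 without L-2HG replicate 3 and 9 without control replicate 2. Control replicate 2 alone lay -0.40 log2 units from the other controls (median over the list).

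Effector cytokine genes were lower where they passed. Of 17 tested genes for cytokines, chemokines and cytotoxic proteins, 4 fell and 0 rose (23.5%, median -0.58). Ifng, encoding interferon-γ, had 32, 24 and 30 counts in the controls and 6, 0 and 4 with L-2HG, or 7.58, 11.6 and 5.43 against 2.19, 0 and 1.90 CPM. All L-2HG values were below the controls, and the log2 fold change was -2.11 ± 0.61 (edgeR adjusted p = 0.0276). That call was lost without control replicate 1 or 3 and without L-2HG replicate 1 or 2, with adjusted p up to 0.0945. The chemokine genes Ccl3, Ccl4 and Xcl1 fell by 0.99, 0.74 and 0.99 (edgeR adjusted p = 0.0152, 0.0339 and 0.0237). Ccl3 was at 969, 475 and 698 CPM in control and 415, 272 and 385 with L-2HG.

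Other effector genes did not pass. Tnf was at 788, 562 and 639 CPM in control and 675, 592 and 805 CPM with L-2HG, with the groups overlapping (log2 difference 0.06, 95% interval -0.35 to 0.47). Il2, the T cell growth factor, was at 48.1, 20.8 and 44.3 and 32.2, 29.6 and 30.4 CPM (-0.31, -0.89 to 0.26), and the granzyme gene Gzmb at 8.999, 9.69 and 8.14 and 4.02, 9.87 and 2.85 CPM (-1.01, -1.94 to -0.09, edgeR adjusted p = 0.106), from 5 to 45 counts a library. Fallen members of the cytokine list numbered 0 without control replicate 1 or 3, 1 without L-2HG replicate 2, 2 without L-2HG replicate 1, 9 without control replicate 2 and 3 to 5 without any other library. Control replicate 2 lay -0.34 from the other controls in the median member.

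Of 13 tested genes for inhibitory receptors and ligands, 3 fell and none rose (23.1%, median -0.21, which was 0.08 with limma-voom). Pdcd1, encoding the checkpoint receptor PD-1, was at 634, 367 and 545 CPM in control and 202, 172 and 251 CPM with L-2HG, a log2 fold change of -1.30 ± 0.23 (edgeR adjusted p = 0.00386). Cd200, whose product quiets myeloid cells through its receptor, was at 52.8, 53.3 and 43.1 and 15.4, 7.90 and 25.2 CPM (-1.47, edgeR adjusted p = 0.00799). Both genes kept the groups apart and passed with each library left out, with adjusted p up to 0.034 and 0.043. Cd160 fell by 0.83 (edgeR adjusted p = 0.0202) and was lost without control replicate 1 or 3 or L-2HG replicate 1 or 2.

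Feedback genes of MAP kinase and G protein signalling were lower where they passed. Of 13 tested, 4 fell and none rose (30.8%, median -0.41). Spry2, which blocks signalling from receptors to ERK (ENSMUSG00000022114, chr14:105891947-105896819), was at 25.1, 14.5 and 22.3 CPM in control and 4.02, 3.95 and 1.43 CPM with L-2HG, a log2 fold change of -2.80 ± 0.43 (edgeR adjusted p = 0.00159). Rgs1 and Rgs16, which switch off G proteins downstream of chemokine receptors, also had no overlap between the groups. Rgs1 was at 108, 76.1 and 88.3 and 25.2, 19.7 and 22.8 CPM (-1.96 ± 0.23, edgeR adjusted p = 0.000159), and Rgs16 at 734, 759.8 and 794 and 315, 280.3 and 261 CPM (-1.41 ± 0.19, edgeR adjusted p = 0.000595). For Rgs16 control replicate 2 lay between the other controls. Spry1 fell by 0.81 (edgeR adjusted p = 0.0143), while the ERK phosphatase gene Dusp6 missed the threshold at -0.63 (edgeR adjusted p = 0.0632). Fallen members numbered 3 to 6 without any other library. Spry2, Rgs1 and Rgs16 belong to the core. With the satellite share as a covariate Rgs1 and Rgs16 passed, at -1.87 and -1.23 (edgeR adjusted p = 0.00308 and 0.0153), and Spry2 did not.

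Genes of early T cell activation were split. Of 36 tested, 4 rose and 4 fell (22.2%, against 17.7% of all tested genes, median -0.10, and 0.01 with library totals). The transcription factor genes Fosl2, Rel and Egr3 and the survival gene Ier3 rose, by 1.06, 0.87, 0.92 and 1.04 (edgeR adjusted p = 0.00799, 0.0216, 0.0276 and 0.0152). The costimulatory receptor gene Tnfrsf9 (4-1BB), at 2596, 1678 and 2094 CPM in control, was at 1037, 825 and 1204 CPM with L-2HG (-1.05, edgeR adjusted p = 0.00894). Cd44, Slc3a2 and Jun also fell, Jun at 5.48, 0 and 2.85 CPM against 9.24, 9.21 and 11.6 (edgeR adjusted p = 0.037).

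The commonly used activation markers showed no call. Cd69 was at 1701, 1015 and 1354 CPM in control and 1077, 1070.0 and 1112 CPM with L-2HG (log2 difference -0.32, 95% interval -0.76 to 0.11), Il2ra at 475, 406 and 419.7 and 363, 377 and 327 CPM (-0.29, -0.67 to 0.09), and the growth regulator Myc at 1973, 1350.1 and 1806 and 1298, 1031 and 1750.1 CPM (-0.33, -0.79 to 0.13). In Cd69 and Myc the groups overlapped, and in Il2ra they did not. Risen activation genes numbered 0 without control replicate 3, 1 without L-2HG replicate 1, 2 without control replicate 1 and 3 to 6 without any other library. The fallen genes numbered 0 without control replicate 3, 1 without control replicate 1, 2 without L-2HG replicate 1, 2 or 3, 9 without control replicate 2 and 3 to 4 without any other library.

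In the T cell receptor list 3 of 24 members rose and 3 fell (25%, median -0.20). Plcg1, the phospholipase of the receptor pathway, went from 41.2 ± 2.95 to 73.9 ± 5.53 CPM (0.83, edgeR adjusted p = 0.0195), and the phosphatase gene Ptprc (CD45) also rose. Trac, the receptor's alpha chain constant region, fell by 0.85, the adaptor gene Lat by 0.84 and the kinase gene Zap70 by 0.67 (edgeR adjusted p = 0.0202, 0.022 and 0.0391). Control replicate 2 lay -0.25 from the other controls in the median member. Risen members numbered 0 without control replicate 1 or 3 or L-2HG replicate 1, 1 without L-2HG replicate 2, 5 without control replicate 2 and 3 to 4 without any other library. The fallen members numbered 0 without control replicate 1 or 3 or L-2HG replicate 2, 1 without L-2HG replicate 1, 6 without control replicate 2 and 2 to 4 without any other library.

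Naive and memory genes were higher where they passed, with 1 exception. Of 26 tested, 6 rose (Il7r, Ccr9, Itga4, Il6st, Satb1 and Tcf7) and the chemokine receptor gene Cxcr3 fell (26.9%, median 0.30). Il7r, the receptor for the survival cytokine IL-7 that T cells lose on activation (ENSMUSG00000003882, chr15:9505788-9530176), was at 56.8, 81.9 and 55.4 CPM in control and 203, 229 and 209 CPM with L-2HG. Every L-2HG library lay above every control, and the rise was 3.32-fold (1.73 ± 0.21, edgeR adjusted p = 0.000159). Ccr9, a receptor for homing to the gut, was at 17.1, 23.7 and 19.7 and 46.1, 59.2 and 62.3 CPM (1.47 ± 0.23, edgeR adjusted p = 0.00193). Both passed with any library left out, and Il7r also with the satellite share as a covariate (1.41, edgeR adjusted p = 0.00904). The homing receptor gene Ccr7, also a naive gene, did not pass, with a log2 difference of -0.52 (-1.0 to -0.04, edgeR adjusted p = 0.107). Risen members numbered 2 without control replicate 1 or 3 or L-2HG replicate 1 or 2 and 4 to 8 without any other library.

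Further genes of the stable core lie outside the lists and were chosen for mention after their values were seen. Thy1, the surface glycoprotein CD90, was at 164, 98.9 and 119 CPM in control and 360.1, 270.5 and 495 CPM with L-2HG (1.57 ± 0.23, edgeR adjusted p = 0.00145). With the satellite share as a covariate it was at 1.98 (edgeR adjusted p = 0.000448). Serpinb9, the granzyme B inhibitor, was at 287, 316 and 295 and 98.3, 67.1 and 132 CPM (-1.55, edgeR adjusted p = 0.00091). Neither gene's groups overlapped. The semaphorin gene Sema4d rose by 1.52 and the membrane protein gene Mctp2 by 2.12, while Itm2a, a gene that activated T cells switch on, fell by 1.22 (edgeR adjusted p = 0.00203, 0.000595 and 0.00386). The 10 largest falls by the naming rule, which asks for a mean of at least 5 CPM over the 6 libraries, were those of Spry2, Ak7, Ly6a, Cxcl10, Fcrl1, Epcam, Thg1l, Rgs1, mt-Cytb and Gbp2, of which Ak7, an adenylate kinase, and Thg1l, a guanylyltransferase of histidine tRNA, belong to the core. Ak7 was at 39.1, 26.2 and 30.04 CPM in control and 7.68, 1.97 and 3.81 CPM with L-2HG (-2.56, edgeR adjusted p = 0.00193). Thg1l was at 37.7, 24.7 and 38.2 and 8.77, 7.90 and 8.56 CPM (-1.98, edgeR adjusted p = 0.00145). Epcam and Fcrl1, with few counts, fell by 2.0 and 2.05 (edgeR adjusted p = 0.0254 and 0.0233), and both were lost without control replicate 1 or 3 or L-2HG replicate 1, Fcrl1 also without L-2HG replicate 3.

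**Figure D3:**
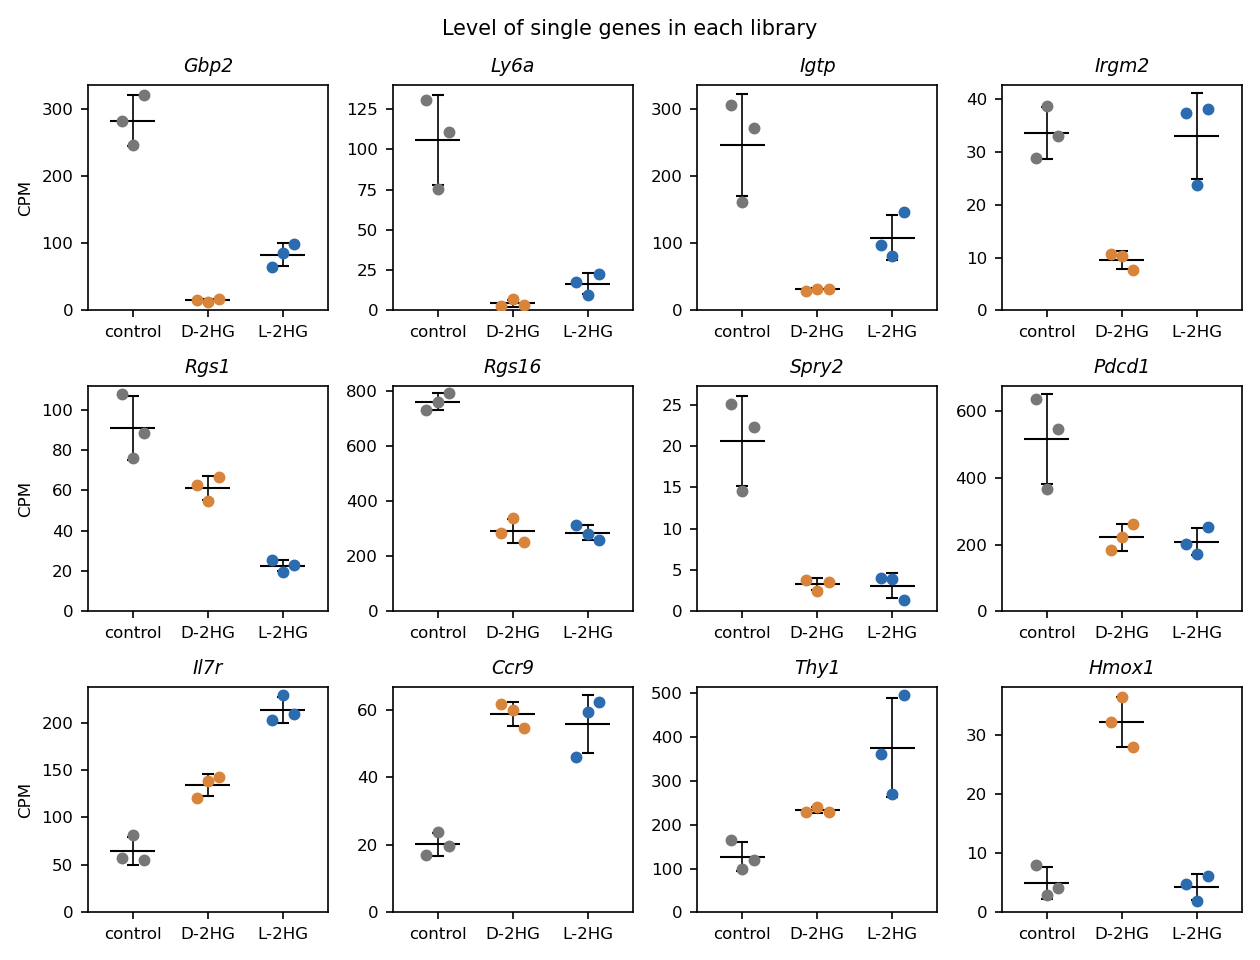
CPM of 12 genes in the 9 libraries, by group (grey control, orange D-2HG, blue L-2HG), with 1 point a library in the order of the replicates, the mean as a bar and the SD as whiskers (n = 3). Gbp2, Ly6a, Rgs1, Rgs16, Spry2 and Pdcd1 are lower and Il7r, Ccr9 and Thy1 higher with L-2HG than in any control, while Irgm2 and Hmox1 overlap with the controls.

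Genes of respiration and of the synthesis and breakdown of proteins were lower where they passed, and for these the controls themselves were split. Of 71 tested nuclear genes for oxidative phosphorylation, 22 fell and none rose (31%, median -0.64). Of 76 mitochondrial ribosomal proteins 25 fell (32.9%, median -0.60), of 79 cytosolic ribosomal proteins 12 (15.2%, -0.51) and of 31 constitutive proteasome subunits 23 (74.2%, -0.71), with no member of the 3 lists rising. The share of cytosolic ribosomal proteins called lay under the 17.7% of all tested genes. The mean log2 CPM of the L-2HG libraries overlapped with the controls for both ribosomal lists, and not for the respiratory and proteasome lists. Ndufs8, a complex I subunit, was at 279, 159 and 229 CPM in control and 116, 73.05 and 109.9 CPM with L-2HG (-1.12, edgeR adjusted p = 0.00852). Psmc1, an ATPase of the proteasome cap, was at 443, 256 and 400.3 and 161, 166 and 202 CPM (-1.05, edgeR adjusted p = 0.00909). In both genes control replicate 2 was the lowest control.

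The same split ran through each of these lists. Control replicate 2, which received no compound, lay below the other 2 controls, with a median log2 difference of -0.62 for the respiratory genes, -0.63 for mitochondrial and -0.62 for cytosolic ribosomal proteins and -0.63 for the proteasome. For the respiratory genes the mean log2 CPM per library was 7.88, 7.16 and 7.65 in control replicates 1, 2 and 3 and 7.10, 6.49 and 7.15 with L-2HG. Respiratory genes called lower numbered 0 without control replicate 3, 2 without control replicate 1, 3 without L-2HG replicate 1 or 2, 36 without L-2HG replicate 3, 65 without control replicate 2 and 15 to 19 without any other library. Proteasome genes called lower numbered 0 without control replicate 3, 1 without control replicate 1, 2 without L-2HG replicate 1, 8 without L-2HG replicate 2, 15 without D-2HG replicate 1 and 17 to 28 without any other library. Mitochondrial ribosomal proteins called lower numbered 0 without control replicate 3, 1 without control replicate 1, 3 without L-2HG replicate 1, 8 without L-2HG replicate 2, 15 without D-2HG replicate 1 or 2, 66 without control replicate 2 and 21 to 37 without any other library. Cytosolic ones numbered 0 without control replicate 1 or 3 or L-2HG replicate 1 or 2, 3 without D-2HG replicate 1, 4 without D-2HG replicate 2, 28 without L-2HG replicate 3, 58 without control replicate 2 and 8 without any other library. None of these 4 lists had a call with the satellite share as a covariate, and the part of RNA quality in the falls was not tested.

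In the list of transcripts encoded by the mitochondrial genome, 5 of 11 tested members fell and none rose (45.5%, median -0.82). The mitochondrial tRNA mt-Tv, which is not in this list, rose by 1.94 (edgeR adjusted p = 0.0352). mt-Nd4, a complex I subunit, was at 1939, 1067 and 1514 CPM in control and 649, 608 and 561 CPM with L-2HG (-1.31 ± 0.22, edgeR adjusted p = 0.00283), with no overlap, and passed with each library left out. mt-Cytb, cytochrome b of complex III, went from 6541 ± 2637 to 1879 ± 728 CPM (-1.80, edgeR adjusted p = 0.0152) and was lost without control replicate 1 or 3. Fallen members numbered 1 without control replicate 1 or 3, 3 without L-2HG replicate 2 or 3 and 4 to 7 without any other library. The nuclear RNA Neat1, read here as a sign of RNA quality, rose by 0.97 (edgeR adjusted p = 0.0152). That call was lost without control replicate 1 or 3 or L-2HG replicate 1. Neat1 belongs to a list of nuclear and mitochondrial RNAs, of which 2 of 12 tested members rose and 5 fell (58.3%, against 17.7% of all tested genes, median -0.19).

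**Figure D4:**
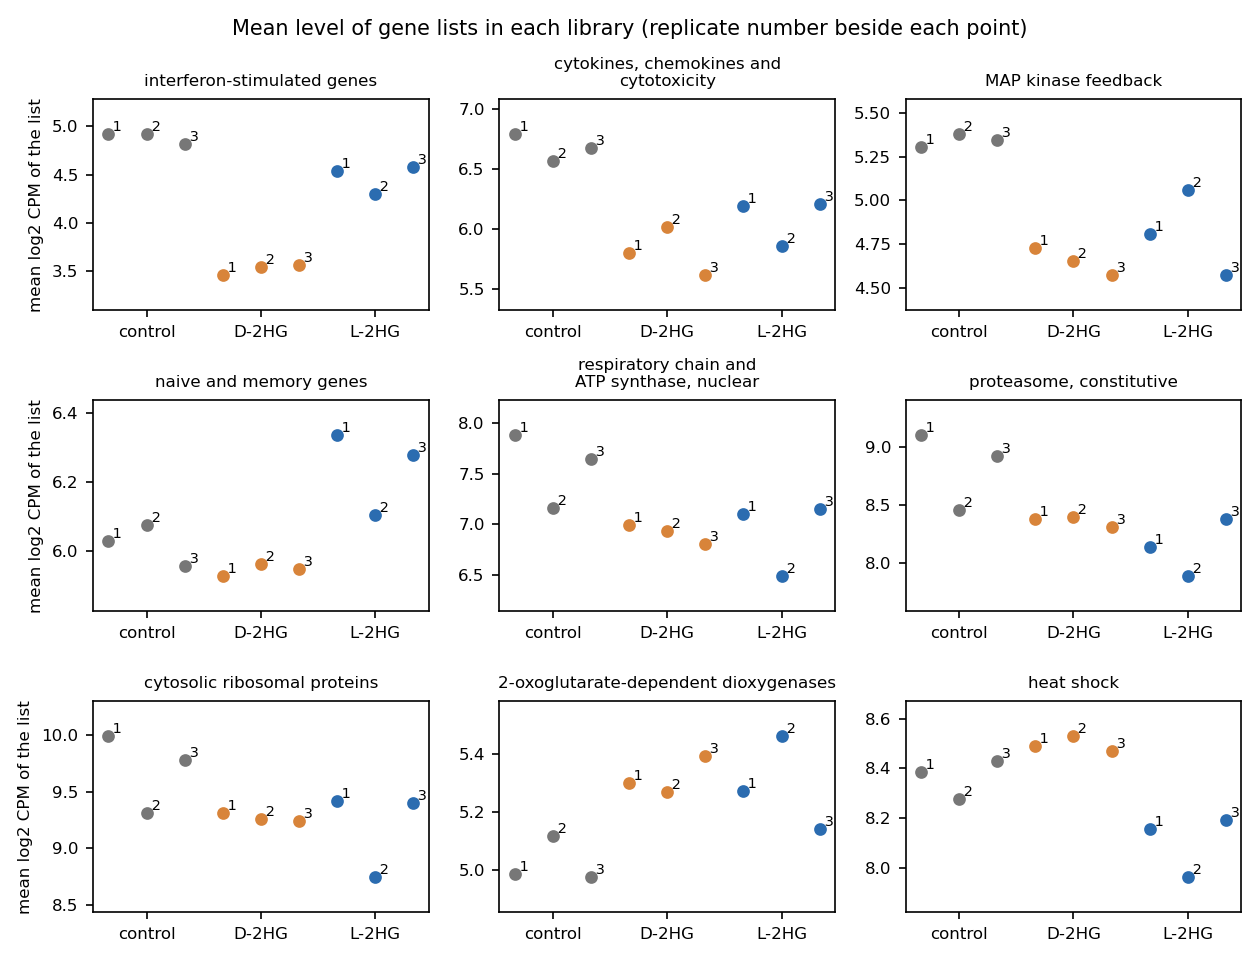
Mean log2 CPM of the tested members of 9 gene lists in each library (grey control, orange D-2HG, blue L-2HG), with the replicate number beside each point. Control replicate 2 lies between the other controls and the L-2HG libraries for the respiratory chain and the proteasome, while for interferon-stimulated and MAP kinase feedback genes it lies with the other controls.

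Enzymes that make or remove 2-hydroxyglutarate were 12 of the tested genes, of which 2 fell and none rose (16.7%, median -0.45). This share lay under the 17.7% of all tested genes. Mdh2, the mitochondrial malate dehydrogenase, was at 899, 487 and 766 CPM in control and 401, 324 and 468 CPM with L-2HG (-0.84, edgeR adjusted p = 0.0212), and Phgdh, the first enzyme of serine synthesis, fell by 0.69 (edgeR adjusted p = 0.0261). D2hgdh and Idh1 had 20 counts or fewer in every library, with log2 differences of -0.33 and -0.06 and intervals from -1.49 to 0.84 and from -1.51 to 1.39. The cytosolic Mdh1 and Ldha, the lactate dehydrogenase of activated T cells, missed the threshold at -0.71 and -0.57 (edgeR adjusted p = 0.0509 and 0.0801). Fallen members numbered 0 without control replicate 1 or 3 or L-2HG replicate 1 or 2, 4 without L-2HG replicate 3, 6 without control replicate 2 and 2 without any other library, and control replicate 2 lay -0.34 from the other controls in the median member.

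Genes of the dioxygenases that 2-hydroxyglutarate can inhibit rose where they passed. Of 41 tested, 9 rose and none fell (22%, against 17.7% of all tested genes, median 0.22). Of these 9, 7 were among the 20 histone demethylases (Kdm2b, Kdm3a, Kdm4c, Kdm5b, Kdm6a, Phf8 and Jmjd1c). The other 2 were Tet2 and Tet3, which oxidise methylcytosine in DNA. Kdm2b, a demethylase of histone H3 lysine residues, was at 35.3, 73.2 and 50.9 CPM in control and 127, 172 and 90.4 CPM with L-2HG (1.27, edgeR adjusted p = 0.00964). Tet3 was at 52.6, 68.8 and 47.8 and 114, 103 and 93.7 CPM (0.89, edgeR adjusted p = 0.015). In both genes the L-2HG libraries lay above every control. None of the 10 prolyl, lysyl and asparaginyl hydroxylase genes passed, and Egln1, an oxygen sensor of the HIF pathway, was at -0.99 (-1.73 to -0.24, edgeR adjusted p = 0.0587). Of 32 histone and DNA methyltransferase genes 9 rose and none fell (28.1%, median 0.49). Dnmt1, the maintenance DNA methyltransferase, went from 27.2, 25.2 and 23.7 CPM to 54.5, 65.1 and 38.1 CPM (1.0, edgeR adjusted p = 0.0146), and Ehmt1 and Kmt2a, of H3 lysine 9 and lysine 4, rose by 1.13 and 0.92 (edgeR adjusted p = 0.0155 and 0.0143). Control replicate 2, which received no compound, lay above the other controls, by 0.21 log2 units in the median dioxygenase gene and 0.09 in the median methyltransferase gene. Risen dioxygenase genes numbered 0 without control replicate 1 or 3, 1 without L-2HG replicate 1, 15 without control replicate 2 and 6 to 10 without any other library. Risen methyltransferase genes numbered 0 without control replicate 3 or L-2HG replicate 1, 1 without control replicate 1, 5 without L-2HG replicate 2 or D-2HG replicate 1 and 6 to 11 without any other library. No member of either list passed with the satellite share as a covariate. The median exon length was 5987 bases in the dioxygenase and 7778 in the methyltransferase list, against 4447 for all tested genes. Its part in these rises was not tested.

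Targets of HIF gave 3 higher and 1 lower members of 20 (20%, against 17.7% of all tested genes, median 0.45). Glycolysis gave 3 and 2 of 21 (23.8%, median -0.27). Pfkfb3, which makes the activator of phosphofructokinase, was at 52.1, 72.7 and 47.2 CPM in control and 101, 115 and 82.3 CPM with L-2HG (0.78, edgeR adjusted p = 0.0251). Its relative Pfkfb4 rose by 2.12 (edgeR adjusted p = 0.0173), with a predicted background, as explained below, of 16.1% of its counts. The glucose transporter gene Slc2a3 rose by 1.36 (edgeR adjusted p = 0.00799) while Slc2a1 fell by 0.72 (edgeR adjusted p = 0.0365). The demethylase gene Kdm3a, a HIF target as well, rose by 0.87 (edgeR adjusted p = 0.0233). Hk2, the first enzyme of glycolysis, was at 78.6, 69.3 and 67.7 CPM in control and 98.3, 120.4 and 67.5 with L-2HG, overlapping (log2 difference 0.37, -0.08 to 0.83). In the TCA cycle list 2 of 24 rose and 6 fell (33.3%, median -0.38): Idh3g and the succinate dehydrogenase gene Sdhc fell by 1.03 and 1.19, and Aco1, the cytosolic aconitase that also senses iron, rose by 1.16 (edgeR adjusted p = 0.0152, 0.0152 and 0.0201). Risen HIF targets numbered 0 without control replicate 1 or 3 or L-2HG replicate 1, 1 without L-2HG replicate 2, 6 without control replicate 2 and 3 without any other library. Risen glycolysis genes numbered 0 without control replicate 3, 1 without control replicate 1 or L-2HG replicate 1 and 2 to 4 without any other library. Fallen TCA cycle genes numbered 0 without control replicate 1 or 3 or L-2HG replicate 1, 2 without L-2HG replicate 2, 14 without control replicate 2 and 4 to 8 without any other library.

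Osmotic stress genes rose in 5 of 13 tested cases and fell in 1 (46.2%, median 0.41). Hspa4l, an osmotic and heat inducible chaperone of the Hsp110 family, was at 30.3, 38.8 and 26.6 CPM in control and 55.9, 71.1 and 57.6 CPM with L-2HG (0.93, edgeR adjusted p = 0.0147). Ranbp2 and the amino acid transporter gene Slc38a2 rose by 1.36 and 1.0 (edgeR adjusted p = 0.00749 and 0.0135), as did Nfat5, the transcription factor of the osmotic response, by 0.65, and the taurine transporter gene Slc6a6 by 0.59 (edgeR adjusted p = 0.0463 and 0.0436). Heat shock genes fell in 4 of 17 cases and rose in none (23.5%, median -0.45), with the mitochondrial chaperonin genes Hspd1 and Hspe1 at -0.76 and -0.67 and Hsp90aa1 at -0.90 (edgeR adjusted p = 0.0155, 0.0459 and 0.022). Hspd1 was at 1468, 1240.1 and 1455 CPM in control and 819, 766 and 864 CPM with L-2HG, with no overlap. Control replicate 2 lay 0.29 log2 units above the other controls in the median osmotic stress gene. Risen osmotic genes numbered 0 without control replicate 3, 1 without control replicate 1, 2 without L-2HG replicate 1, 3 without L-2HG replicate 2 or D-2HG replicate 1, 2 or 3 and 5 without any other library. Fallen heat shock genes numbered 0 without control replicate 1 or 3, 1 without L-2HG replicate 1 or 2, 2 without D-2HG replicate 1, 2 or 3, 8 without L-2HG replicate 3 and 9 without control replicate 2.

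Genes of the unfolded protein response went both ways, 3 higher and 6 lower of 25 (36%, median -0.36). Pdia3, a disulfide isomerase of the endoplasmic reticulum, was at 1146, 755 and 1108 CPM in control and 512, 482 and 509 CPM with L-2HG (-1.0, edgeR adjusted p = 0.00846), and Manf and Hspa5 (BiP) fell by 1.10 and 0.80 (edgeR adjusted p = 0.0163 and 0.0203). Hyou1, a chaperone, and Ern1, the sensor IRE1, rose by 1.01 and 1.20 (edgeR adjusted p = 0.0195 and 0.048). Of 23 tested NRF2 and pentose phosphate genes, the transporter genes Abcc1 and Abcc4 rose by 0.98 and 0.74 and the transketolase gene Tkt fell by 0.89 (edgeR adjusted p = 0.0227, 0.0286 and 0.015; 13%, median -0.17). Of 19 p53 targets, Trp53inp1 and Zmat3 rose by 1.35 and 1.09 and Gadd45g fell by 2.08 (edgeR adjusted p = 0.0156, 0.0203 and 0.0325; 15.8%, median -0.03, and 0.06 with library totals). Fallen unfolded protein response genes numbered 0 without control replicate 3, 2 without control replicate 1 or L-2HG replicate 1, 3 without L-2HG replicate 2, 11 without control replicate 2 and 6 without any other library. All these NRF2 and p53 calls were lost without control replicate 1 or 3, and both lists had a smaller share of calls than the 17.7% of all tested genes.

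Growth genes were lower in part. Ribosome biogenesis gave 2 higher and 11 lower members of 36 (36.1%, median -0.44), with the nucleolar protein genes Npm1 and Ebna1bp2 down by 0.92 and 0.94 (edgeR adjusted p = 0.0156 and 0.0175). In the one-carbon and nucleotide list 6 of 30 fell and Atic rose (23.3%, median -0.05, and 0.03 with library totals), and Shmt2, the mitochondrial serine hydroxymethyltransferase, was at 1145, 770.0 and 1051 CPM in control and 525, 454 and 704 CPM with L-2HG (-0.81, edgeR adjusted p = 0.0202). Among ATF4 targets and amino acid genes 2 of 39 rose and 7 fell (23.1%, median -0.12), Atf4 itself by 0.59 and the proline synthesis gene Pycr1 by 1.51 (edgeR adjusted p = 0.0473 and 0.0199). Of 24 cell cycle genes Mcm5, a subunit of the replicative helicase, and Pcna, the polymerase clamp, fell and none rose (8.33%, median 0.01, and -0.12 with DESeq2). That share lay under the 17.7% of all tested genes. Mcm5 was at 170.3, 174 and 163 CPM in control and 75.3, 69.1 and 93.2 CPM with L-2HG (-1.07, edgeR adjusted p = 0.00557), with no overlap, and passed with any library left out. Fallen ribosome biogenesis genes numbered 0 without control replicate 1 or 3 or L-2HG replicate 1, 2 without L-2HG replicate 2, 6 without D-2HG replicate 1 or 2, 17 without L-2HG replicate 3, 18 without control replicate 2 and 9 without any other library. Fallen one-carbon and nucleotide genes numbered 0 without control replicate 1 or 3 or L-2HG replicate 1, 1 without L-2HG replicate 2, 12 without control replicate 2 and 4 to 7 without any other library. Fallen ATF4 and amino acid genes numbered 0 without control replicate 1 or 3 or L-2HG replicate 1, 1 without L-2HG replicate 2, 2 without D-2HG replicate 1 or 2, 11 without control replicate 2 and 5 to 7 without any other library.

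Lipid synthesis genes rose in 4 of 33 cases and fell in none (12.1%, under the 17.7% of all tested genes, median 0.33). Acly, which makes cytosolic acetyl-CoA, was at 70.3, 184 and 81.8 CPM in control and 319.9, 377 and 154 CPM with L-2HG, where control replicate 2 lay above the lowest L-2HG library (1.34, edgeR adjusted p = 0.0279). The fatty acid synthase gene Fasn and the desaturase gene Scd2 rose by 0.58 and 1.71 (edgeR adjusted p = 0.0418 and 0.0224). Of 18 iron and heme genes Aco1 rose and 2 fell, among them the biliverdin reductase gene Blvra by 0.84 (edgeR adjusted p = 0.047; 16.7%, median -0.04, and 0.09 with library totals). None of 11 BCL2 family genes passed in edgeR, where 3 did with DESeq2 and 5 with limma-voom, and the smallest edgeR adjusted p was 0.054 for Bcl2a1d (log2 difference -0.73). At an unadjusted p under 0.05, 2 members, Bcl2a1b and Bcl2a1d, were lower, and these are near-identical copies of each other. Risen lipid genes numbered 0 without control replicate 1 or 3 or L-2HG replicate 1, 1 without L-2HG replicate 2, 9 without control replicate 2 and 3 to 4 without any other library. Control replicate 2 lay 0.22 log2 units above the other controls in the median lipid gene.

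The mirror-image compounds were compared at the same dose and time in the same fit. L-2HG and D-2HG are enantiomers, with opposite handedness at their hydroxyl-bearing carbon. L-2HG libraries differed from D-2HG libraries in 31 genes (0.303% of those tested), 26 higher (0.254%) and 5 lower (0.0489%) with L-2HG. Of the 26 higher genes, 15 were in the interferon-stimulated list, and 2 more, among them Irf1, were in the list of interferon receptors, kinases and factors. Gbp2 was at 16.2, 13.2 and 16.7 CPM with D-2HG against 64.3, 84.9 and 98.9 CPM with L-2HG (log2 difference 2.43 ± 0.24, edgeR adjusted p = 1.97e-05). Igtp was at 29.6, 31.97 and 32.5 CPM with D-2HG and 98.3, 80.9 and 147 CPM with L-2HG (1.82, 95% interval 1.28 to 2.37, edgeR adjusted p = 0.00176). No L-2HG library reached down to a D-2HG library in either gene.

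Both comparisons with control share the control libraries, so their values are only set side by side. Of the 26 genes, 25 were called below control with D-2HG, where 10.5% of all tested genes were. With L-2HG 10 were called below and 2, Kif21b and Gm1966, above, against 8.3% and 9.41% of all tested genes. The 26 genes were picked by lower values in the same D-2HG libraries, so the choice itself favours calls below control with D-2HG. Irgm2, whose promoter is shown above, was at 10.7, 10.3 and 7.68 CPM with D-2HG, against 28.9, 38.8 and 32.9 in control and 37.3, 23.7 and 38.1 with L-2HG (1.84 between the compounds, edgeR adjusted p = 0.00204). All 6 immunity-related GTPases and 5 of 8 guanylate-binding proteins were higher with L-2HG than with D-2HG. Among the 26 genes, 16 had a promoter in the RefSeq table, of which 11 held the ISRE-type core (68.8%) and 8 the GAS-type core (50%). These cores were found in 61.8% and 35.3% of promoters of tested interferon-stimulated genes and in 3.87% and 8.37% of those of all tested genes. As 15 of the 26 genes belong to the interferon-stimulated list, these shares largely repeat that membership.

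In the other direction, Hmox1, which breaks down heme and is a target of NRF2, was at 32.3, 36.5 and 27.99 CPM with D-2HG and 4.75, 1.97 and 6.18 CPM with L-2HG, where the controls were at 8.05, 2.91 and 4.16 CPM. The difference between the compounds was -2.70 ± 0.38 (edgeR adjusted p = 0.00172). Hspa4l was higher with D-2HG (124, 135 and 135 CPM) than with L-2HG (55.9, 71.1 and 57.6 CPM; -1.12, edgeR adjusted p = 0.0182). Rgs1 was lower with L-2HG than with D-2HG, at 62.6, 54.8 and 66.4 CPM with D-2HG (-1.39, edgeR adjusted p = 0.00612). The stress gene Zfand2a and the esterase gene Esd were lower with L-2HG, at log2 differences of -1.42 and -1.04 (edgeR adjusted p = 0.0302 and 0.0495).

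For other genes that changed with L-2HG against control, no difference between the compounds passed. The log2 difference was -0.03 (95% interval -0.42 to 0.36) for Rgs16, -0.11 (-1.18 to 0.96) for Spry2, -0.08 (-0.55 to 0.39) for Pdcd1 and -0.09 (-0.55 to 0.37) for Ccr9. For Il7r it was 0.67 (0.25 to 1.08, edgeR adjusted p = 0.285). These intervals bound the difference and do not show that the compounds act alike. Of the 31 genes, 9 passed whichever library was left out, among them Gbp2, Gbp4, Gbp8, Igtp, Irgm2, Tgtp2, Gm1966 and Hmox1, and all 31 passed with the satellite share as a covariate. The count was 10 without L-2HG replicate 1, 15 without L-2HG replicate 3 and 16, 16 and 13 without D-2HG replicate 1, 2 or 3. It was 60 without control replicate 2, although no control enters this comparison directly, and the cause was not tested.

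The 10 largest rises by the same rule are given with a predicted background. They were those of Abca13, Muc16, Dock4, Mdga2, Olfr1489, Prlr, Mgam, Ptprd, Nbea and Tex9, with log2 fold changes from 2.55 to 3.47. Muc16 encodes a mucin and Prlr the prolactin receptor. Abca13 was at 0.947, 1.94 and 0.362 CPM in control and 4.02, 7.90 and 18.6 CPM with L-2HG (3.47 ± 0.68, edgeR adjusted p = 0.00799). Dock4 was at 1.66, 2.91 and 0.181 and 5.48, 7.90 and 26.2 CPM (edgeR adjusted p = 0.00978). L-2HG replicate 3, the library with the most sensory receptor counts, was highest in both. If every base of exon gave as many counts as in sensory receptor genes, which T cells do not use, this background would hold 40.8% of the counts of Mgam over the 9 libraries, 95.6% of those of Abca13, 145% of those of Nbea and 33.8% of those of Muc16. Olfr1489 is itself an olfactory receptor gene. All 10 lost the call without control replicate 3 and 7 of them without L-2HG replicate 3, and Muc16 also without control replicate 1 or 2, L-2HG replicate 2 or any D-2HG library. Unc13c, which lies under the rule's 5 CPM and was chosen after its values were seen, was at 0.474, 0 and 0.362 CPM in control and 5.48, 5.92 and 9.04 CPM with L-2HG (4.22, edgeR adjusted p = 0.00456). It belongs to the core, with a predicted background of 61.5%. The 10 largest rises with a predicted background under 10%, a bound chosen after the values were seen, were those of Traj32, Lfng, Zfp667, Angpt2, Zfp677, mt-Tv, Capn1, Renbp, Abhd14b and Trim37. Capn1, the protease calpain 1, was at 3.32, 5.33 and 4.34 CPM in control and 16.5, 11.8 and 18.1 CPM with L-2HG (1.93, edgeR adjusted p = 0.00557) and belongs to the core. Lfng, a sugar transferase that tunes Notch receptors, was at 10.7, 12.6 and 10.7 and 35.1, 107 and 30.4 CPM (2.16, edgeR adjusted p = 0.0135) and was lost without control replicate 1 or 3.

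Across all tested genes, those with a predicted background over 50% (160 genes) gave 74 higher and 0 lower calls, with a median log2 fold change of 1.82. Genes under 1% (2992) gave 68 higher and 653 lower calls, with a median of -0.41. A predicted background under 10% was found for 683 of the 963 higher and 845 of the 849 lower genes, against 8493 of all 10235. The higher genes had a median exon length of 8011.5 bases, the lower genes 2800 and all tested genes 4447. By list, this median was 5987 for dioxygenase, 7778 for methyltransferase, 8457 for osmotic stress and 5593.5 for naive and memory genes. For nuclear respiratory genes it was 1675, for cytosolic ribosomal proteins 1770 and for the cytokine list 1436. The glycolysis list, with a negative median fold change, had 4875. The part of exon length in the list results was not tested. Of genes named above, Gbp2 had 0.266%, Il7r 0.641%, Thy1 0.215%, Spry2 2.92%, Ccr9 4.05%, Kdm2b 1.75% and Itga4 7.15%. The share for D2hgdh was 18.8% and for Scd2 15.5%.

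**Figure D5:**
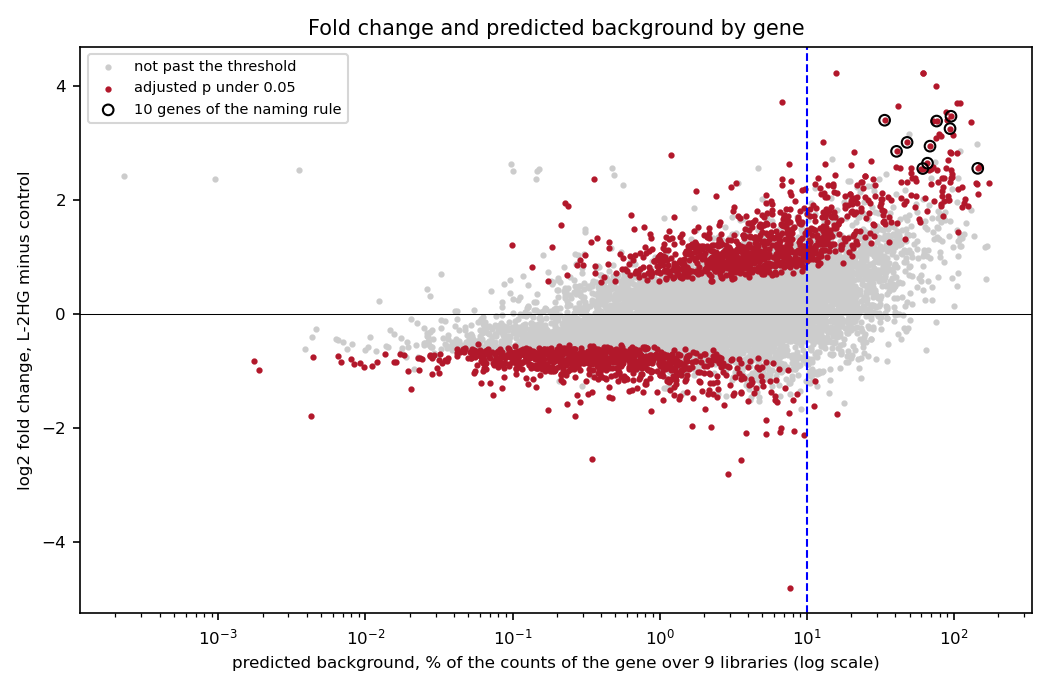
Log2 fold change of L-2HG minus control against the predicted background of each tested gene, as a percentage of its counts over the 9 libraries on a log axis (red where edgeR's adjusted p was under 0.05). Circles mark the 10 genes of the naming rule and the dashed line marks 10%. Of the 160 genes past 50%, 74 are red and above 0 and no red point lies below 0.

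Genes that define CD8 T cells were found in each library. Cd8a was at 1107, 701 and 947 CPM in control and 712, 628 and 848 CPM with L-2HG (log2 difference -0.33, 95% interval -0.76 to 0.10), and of 9 tested CD8 T cell markers Trac, Trbc1 and Trbc2 fell. Markers of other cells were mostly under the count filter: 1 of 4 CD4 T cell markers, 3 of 7 B cell, 1 of 4 plasma cell, 2 of 4 NK cell, 2 of 5 macrophage and monocyte, 2 of 5 dendritic cell and 1 of 3 stroma markers were tested, and no neutrophil, erythroid, platelet or gamma delta T cell marker. Ighm, the heavy chain of immunoglobulin M, was at 310.2, 164 and 244 CPM in control and 124, 140.2 and 188 with L-2HG (-0.67, edgeR adjusted p = 0.049). The NK cell receptor gene Klrd1, also used by CD8 T cells, fell by 1.0 (edgeR adjusted p = 0.0112), and Zbtb46, a factor of dendritic cells, rose by 1.10 with a predicted background of 15.6% (edgeR adjusted p = 0.0382). Summed over each list, B cell markers were at 180.3 to 325 CPM in control and 141 to 200.3 CPM with L-2HG, macrophage and monocyte markers at 49.9 to 59.2 and 23.8 to 26.3 CPM, and dendritic cell markers at 15.02 to 23.2 and 23.7 to 34.3 CPM. Ly6c2, counted above among the interferon-stimulated genes, made up most of the macrophage and monocyte sum. It was at 54.7, 43.1 and 49.2 CPM in control and 21.2, 19.7 and 14.3 CPM with L-2HG. Of the 2 tested macrophage and monocyte markers only Ly6c2 was called. Neutrophil markers summed to 1.90 CPM at most. The calls of Ighm, Klrd1 and Zbtb46 were lost without control replicate 1 or 3, and the part of other cells in the results was not tested.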

How the data were processed

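Polyadenylated RNA of the 3 groups, with 3 libraries each, was read out after oligo(dT) priming, PCR amplification and tagmentation, per the labels' protocols. The authors deposited raw counts of reads for every gene. The submitters' processing notes name STAR 2.7.3a, featureCounts and build mm10, and settings are not given in the sources used here. The deposited signal values are these counts after scaling by the authors. They served only to look up gene identifiers. The protocol as labelled names no marking of strand, so overlapping genes can share reads.

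The counts of 55011 genes were tested with edgeR 4.0.16 (R 4.3.3). The 10235 genes that passed filterByExpr (minimum count 10) were scaled by TMM and fitted with 1 mean per group over all 9 libraries by the robust quasi-likelihood method (6 residual degrees of freedom). The other groups share the estimate of spread, and the biological coefficient of variation was 0.21. p-values were adjusted by Benjamini-Hochberg over all tested genes, with a threshold of 0.05. Intervals of log2 fold changes are 95% intervals of the same fit, not adjusted for the number of genes. CPM are counts per 1000000 of the scaled totals. Mean log2 CPM used a prior count of 2. Replicates differed by more than counting error (chi-square per degree of freedom 6.07 to 42.3). On simulated data 51 of 100 genes changed 2-fold and 100 of 100 changed 4-fold were recovered, with 5 false calls of 10113 genes. The simulated data held 9 libraries in groups of 3, fitted together as here, with the change placed in the L-2HG group and read against control. Whether these values hold for the libraries here, whose replicates differed across whole gene lists, was not tested.

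Members and gene lists were chosen with earlier results of these data known. Lists are described by counts and medians, with no test of the list. Named genes are the 10 largest rises and falls past the threshold whose CPM averaged 5 or more over the 6 libraries, without overlap (without predicted genes and pseudogenes), fixed genes, and up to 3 members of each list with the smallest adjusted p. Some list members are counted but not reported singly here. Other members are named to explain a count, and genes named as chosen later are marked. Of 1052 symbols in the lists 1046 were in the table and 907 were tested. Predicted background was the counts per exon base of 1914 of 2015 sensory receptor genes times exon length (GENCODE M21). Alternatives were DESeq2 1.42.0, limma-voom (limma 3.58.1), other scalings and filters, a fit of the 2 groups, a replicate block, thinning, the satellite share as a covariate, a test against 1.5-fold change and omission of each library. A restriction by predicted background, leaving out control replicate 2 and L-2HG replicate 2 together, and single genes between the compounds were added after seeing the data.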

Additional observations from a re-analysis of the deposited data

Results flagged for a closer look

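Signal appeared in data outside the main measurement, above its level in the controls. Sensory receptor genes, silent in T cells, held a mean of 2040 CPM of the unscaled totals with L-2HG, against 478 ± 335 CPM in control (SD, n = 3; two-sided exact permutation p = 0.1, the smallest that 3 against 3 allow), at 1315, 1418 and 3379 CPM in L-2HG replicates 1, 2 and 3. Gm10800 and Gm10801 took a mean of 13.0% of counts with L-2HG, against 2.56 ± 2.43% in control (exact permutation p = 0.1), at 6.71%, 24.4% and 7.98% in the 3 L-2HG libraries and 1.43%, 5.35% and 0.910% in the controls.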

How the results depend on the processing

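Calls with L-2HG against control numbered 1812 (963 higher, 849 lower) and against D-2HG 31. Leaving out 1 library gave 65 to 4108 calls, 30 to 2070 higher and 35 to 2038 lower, and 10 to 60 between the compounds. Against control the lowest counts came without control replicate 3, between the compounds without L-2HG replicate 1, and the highest of both without control replicate 2. Leaving out L-2HG replicate 2 and control replicate 2 together gave 3787 calls (1894 higher, 1893 lower) and 131 between the compounds. DESeq2 gave 1391 lower genes and 49 between the compounds, and limma-voom 5180 (2840 higher, 2340 lower) and 177. Library totals gave 285 lower genes. With no count filter 608 were higher and 1354 lower, and with a mean count of at least 50 there were 1195 calls, 460 of them lower. A fit of only the 2 groups gave 427 (294 and 133), thinning to the smallest library 648 (391 and 257) and 8 between the compounds, and the satellite share as a covariate 8 (3 and 5) and 76. Against a minimum change of 1.5-fold 32 passed (22 and 10), and 10 between the compounds, a test not run for single genes or lists. The cause of these differences was not tested, except that fewer libraries, genes or counts enter in some by construction. The satellite share as a covariate also takes up part of the difference between L-2HG and control, because it separates these groups. DESeq2 size factors gave 1893 calls, counts without both satellite genes 1862 and genes of low predicted background 1551.

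Replicate numbers did not pair the libraries: deviations of same-numbered control and L-2HG libraries correlated at 0.10, 0.28 and 0.12, and those with D-2HG at -0.17 to 0.03. The fit with the replicate number as a block gave 2284 calls, with 97.4% of the 1812 among them. Of 109 called genes that the text names by rule, 15 passed with every library left out, and none changed direction under any alternative. The depth of L-2HG replicate 2, where 3 counts equal 5.92 CPM, limits what can be said of genes under that level.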
